A study of Arabidopsis thaliana with 12 samples.

Results

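The combined mutant jazD cdk8-1 of *Arabidopsis thaliana* was compared with the wild type Col-0 across all genes, to show what remained changed when the loss of jasmonate repressors and the loss of a Mediator kinase were brought together. The comparison uses 6 of the 12 RNA-seq libraries of the series, 3 of jazD cdk8-1 and 3 of Col-0, taken by their genotype labels. Col-0 is the wild type. The line jazD carries mutations in 10 *JAZ* genes (*JAZ1* to *JAZ7*, *JAZ9*, *JAZ10* and *JAZ13*), and cdk8-1 carries a mutation in *CDK8*. The combined mutant carries the mutations of both. How much of each protein remains was not measured here. Every library was made from whole rosettes, without roots, of 25-day-old plants grown in soil, and pooled about 10 plants; replicates are therefore pools, not single plants. The genotypes were grown in shared trays. Total counts were 19670772, 19957293 and 20407951 in Col-0 and 17894260, 20740605 and 21030374 in jazD cdk8-1, and of 33323 loci 19059 passed the filter on low counts. The jazD and cdk8-1 libraries are used to place a level of the combined mutant. They also enter the low-count filter, the scaling and the estimate of spread, which were made over all 12 libraries. Some genes were named for their change against jazD or in the interaction. Their comparisons with Col-0 use the same 3 Col-0 libraries, so values of the 3 mutants against Col-0 are set side by side and are not independent.

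Jasmonates are lipid-derived hormones that plants make after wounding and attack by insects and necrotrophic fungi. JAZ proteins bind MYC and related transcription factors and hold their target genes down; the hormone, bound by the receptor COI1, leads to the destruction of JAZ proteins and so frees those factors. One branch of the response, driven by MYC factors, serves defence against insects, and another, driven by ERF factors such as ORA59 together with ethylene, serves defence against necrotrophic fungi. CDK8 is the kinase of a detachable module of Mediator, the complex that links transcription factors to RNA polymerase II. In rosettes, strong jasmonate responses are known to go with slow growth.

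Across the genome, the combined mutant stayed far from wild type. Of the 19059 genes tested, 6173 (32.4%) were called at an adjusted p of 0.05 in edgeR's quasi-likelihood test with Benjamini-Hochberg adjustment, 3111 higher (16.3%) and 3062 lower (16.1%). Most changes were small: the median size among called genes was 0.37 on the log2 scale. A change of at least 2-fold was seen in 369 genes that rose (1.94%) and 521 that fell (2.73%), and one of at least 4-fold in 111 and 109. The 3 and 3 libraries did not overlap for 8540 genes (44.8%). Against the same Col-0 libraries, 4162 genes (21.8%) were called higher and 3991 (20.9%) lower in jazD, and 2229 (11.7%) higher and 2624 (13.8%) lower in cdk8-1. At 2-fold or more, jazD had 817 genes higher (4.29%) and 435 lower (2.28%), and cdk8-1 had 189 higher (0.992%) and 471 lower (2.47%). In the direct test of jazD cdk8-1 against jazD, 3213 genes were higher (16.9%) and 3612 lower (19.0%), among them 298 (1.56%) and 850 (4.46%) of at least 2-fold. The share of higher genes among those called was 50.4% against Col-0 and 47.1% against jazD. Tested on log2(TPM + 0.5), which applies no TMM scaling, it was 66.9% and 75.8%, and the median of all genes moved from 0.01 to 0.08 against Col-0 and from 0.00 to 0.14 against jazD. Small changes in one direction therefore depend on the scaling. The medians of groups given below are to be read beside the median of 0.01 for all genes. Those on log2(TPM + 0.5) against Col-0 are to be read beside 0.08. Counts of called members are to be read beside the 16.3% of all genes called higher and the 16.1% called lower.

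**Figure D1:**
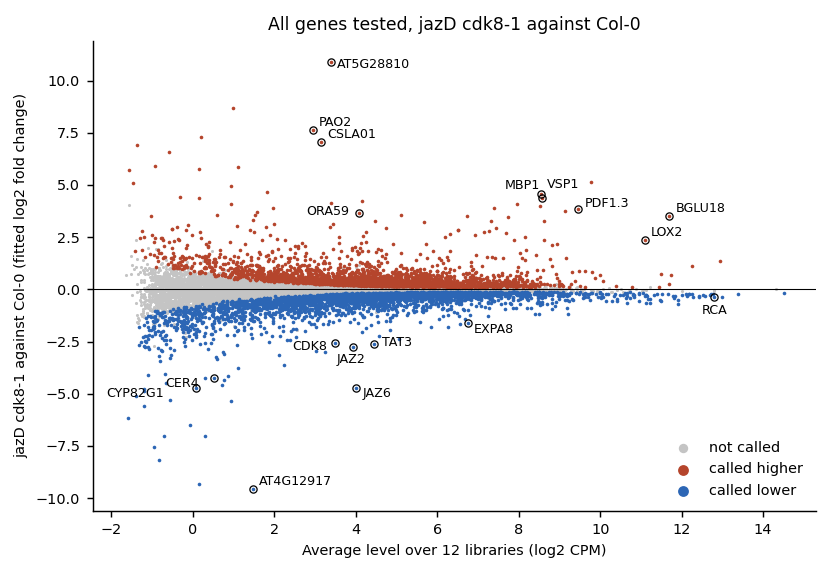
Fitted log2 fold change of jazD cdk8-1 against Col-0 (vertical axis) by average level over 12 libraries in log2 CPM (horizontal axis), 1 point per gene tested, coloured by call at an adjusted p of 0.05. Called genes lie on both sides of 0, and large rises reach abundant transcripts such as *BGLU18* (3.51). Labels name genes described in the text.

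The mutated genes were examined first. *CDK8* stood at 17.38, 18.57 and 20.29 CPM (TMM-scaled counts per 1e6 counts) in the 3 Col-0 libraries and at 2.73, 3.30 and 3.29 CPM in jazD cdk8-1, without overlap. Its log2 fold change was −2.58 ± 0.10 (approximate standard error from the edgeR fit, adjusted p = 1.95e-14). Of the 8 mutated *JAZ* genes with enough counts to be tested, 7 fell and 1 rose; *JAZ7* was too low to test and *JAZ13* was not analysed here. *JAZ6* went from 36.8, 33.8 and 29.2 CPM to 1.00, 1.24 and 1.44 CPM (−4.74 ± 0.13), and *JAZ2* from 27.6, 23.5 and 21.8 CPM to 3.50, 3.59 and 3.52 CPM (−2.78 ± 0.11). *JAZ5* (−2.65 ± 0.31, and −3.30 without jazD cdk8-1 replicate 1), *JAZ1* (−2.26 ± 0.15) and *JAZ4* (−2.06 ± 0.52) fell as well. *JAZ3* (−0.72 ± 0.06) and *JAZ9* (−0.28 ± 0.05) kept most of their counts. A count per gene does not show which part of a transcript was read, so residual counts do not measure intact protein. *JAZ10* was the exception, at 2.23, 1.61 and 2.40 CPM in Col-0 and 3.39, 2.97 and 2.78 CPM in the combined mutant (0.54 ± 0.20, adjusted p = 0.0457 in edgeR). That call ended under several alternatives, for instance without Col-0 replicate 2 (0.39, adjusted p = 0.200 in edgeR). Of the *JAZ* genes left intact, *JAZ12* rose by 0.46 ± 0.06 and *JAZ8* by 1.67 ± 0.55 (adjusted p = 0.0236 in edgeR), while *JAZ11* stood at 0.08 ± 0.10. The rise of *JAZ8* rested on few counts and was no longer called without Col-0 replicate 2 (1.1, adjusted p = 0.0993 in edgeR). The 9 mutated *JAZ* genes analysed summed to 152 to 171.9 CPM in Col-0, 110.2 to 113.4 CPM in jazD and 75.77 to 79.54 CPM in jazD cdk8-1. Set directly against jazD, 5 of the 8 tested were lower in jazD cdk8-1 and none was higher.

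Genes that make and relay jasmonate remained higher in the combined mutant. Of 19 jasmonate synthesis genes tested out of 20, 13 rose and 1 fell (*FAD7*, a plastid fatty acid desaturase, −0.27), with a median log2 fold change of 0.39 against 0.01 for all genes. *LOX2*, the lipoxygenase that starts the pathway in leaves, stood at 565, 573 and 556 CPM in Col-0 and at 2883, 2863 and 2936 CPM in jazD cdk8-1. The libraries of the 2 genotypes lay far apart, at 5.13-fold (2.36 ± 0.05). *AOC1* (2.76 ± 0.06) and *AOC2* (2.13 ± 0.05), allene oxide cyclases whose near-identical sequences leave the division of reads between them uncertain, and *AOS* (1.48 ± 0.04), the allene oxide synthase, rose too. In jazD 15 of these genes rose and 2 fell, and the summed level of the list was 2033 to 2038 CPM in Col-0, 8289 to 8473 CPM in jazD and 5571 to 5684 CPM in jazD cdk8-1. Set directly against jazD, 12 were lower and none was higher in the combined mutant. On log2(TPM + 0.5), 9 were lower and 5 higher, where 2076 of all 19059 genes were lower and 6498 higher.

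Of 16 jasmonate signalling and turnover genes tested out of 17, 11 rose and none fell (median 0.36). *JOX1*, *JOX2*, *JOX3* and *JOX4*, planned for this list, were left out and not examined here. *MYC2*, the bHLH factor at the head of the insect-defence branch, was at 36.2, 41.7 and 41.4 CPM in Col-0 and at 99.1, 104 and 114 CPM in jazD cdk8-1, a rise of 2.66-fold (1.41 ± 0.07). In jazD its libraries were at 129.8, 131 and 131 CPM, above the combined mutant by a called difference (−0.30 ± 0.06 for jazD cdk8-1 against jazD). *MYC3* (0.62 ± 0.05), a partner of *MYC2*, and *JAM1* (0.88 ± 0.07), a bHLH repressor that opposes it, rose as well. *ILL6*, an amidohydrolase that breaks down jasmonoyl-isoleucine, rose by 1.80 ± 0.08. The receptor gene *COI1* (0.08) and *JAR1* (0.09), whose enzyme makes the active hormone, were not called; both were chosen after their values were seen.

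Many insect-defence genes stayed above wild type. Of 19 tested out of 20, 11 rose and 3 fell (median 1.05); in jazD 14 rose and 1 fell (median 3.23). *VSP1* and *VSP2*, which encode vegetative storage proteins toxic to insects, were at 13.9, 12.0 and 12.3 CPM and at 16.8, 17.3 and 18.9 CPM in Col-0. In jazD cdk8-1 they were at 270.2, 256 and 364 CPM and at 267, 262 and 312 CPM. The rises were 23.3-fold (4.54 ± 0.18) and 15.9-fold (3.99 ± 0.12), with every combined-mutant library above every Col-0 library. In jazD the same genes lay at 1178 to 1192 CPM and 1137 to 1191 CPM, and the direct test put jazD cdk8-1 lower than jazD by −2.0 ± 0.14 and −2.06 ± 0.09. Against jazD, 17 of the 19 genes were lower and none was higher. *MBP1*, a myrosinase-binding lectin (4.36 ± 0.08), *JAL23*, a jacalin-related lectin (2.94 ± 0.09), *CORI3*, a cystine lyase (2.39 ± 0.07), and *CLH1*, a chlorophyllase (1.76 ± 0.05), also stayed high.

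The 3 members of that list that fell did so far below wild type. *TAT3*, a jasmonate-inducible tyrosine aminotransferase, was at 33.4, 34.0 and 51.6 CPM in Col-0 and at 6.01, 4.30 and 8.94 CPM in jazD cdk8-1 (−2.62 ± 0.28). *TPS04* and *CYP82G1*, named here after their values were seen, act in sequence to make the volatile homoterpene TMTT. *TPS04* went from 6.85, 7.43 and 9.75 CPM to 1.00, 0.717 and 2.69 CPM (−2.41 ± 0.29). *CYP82G1* went from 3.32, 3.06 and 2.05 CPM to 0.167, 0 and 0.139 CPM (−4.73 ± 0.45). No library of the combined mutant reached the lowest Col-0 library for any of the 3. In cdk8-1 against Col-0 the changes were −2.39 for *TAT3*, −3.08 for *TPS04* and −4.98 for *CYP82G1*, and in jazD they were −0.22, 0.21 and −1.72.

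The jasmonate-ethylene branch stood above wild type but far below jazD. Of 14 genes tested out of 18, 9 rose and none fell (median 1.81), against 13 that rose and 1 that fell in jazD (median 4.26). The summed level of the list was 103.5 to 122.7 CPM in Col-0, 366 to 385.5 CPM in jazD cdk8-1 and 8163 to 8786 CPM in jazD. *ORA59*, the ERF factor that drives the branch, rose from 1.5, 1.05 and 0.80 CPM to 13.9, 13.8 and 14.5 CPM, 12.6-fold (3.65 ± 0.15). *ERF2* (1.90 ± 0.14), another ERF factor of the group, rose with it. *PR4*, a chitin-binding defence protein gene, was at 42.5, 38.7 and 28.8 CPM in Col-0 and at 157, 172 and 166 CPM in jazD cdk8-1 (2.17 ± 0.14), with no overlap. *PGIP2*, an inhibitor of fungal polygalacturonases, rose by 0.79 ± 0.05.

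The defensin genes of this branch, which encode small antifungal peptides, had the widest gap between the combined mutant and jazD. *PDF1.2* was at 5.66, 4.21 and 1.65 CPM in Col-0, at 50.6, 62.3 and 41.6 CPM in jazD cdk8-1 and at 2092, 2238 and 2208 CPM in jazD. It was thus 13.5-fold higher than wild type (3.75 ± 0.41) and −5.40 ± 0.29 below jazD. *PDF1.3* was at 2.18, 1.51 and 0.85 CPM in Col-0 and at 34.3, 13.4 and 17.7 CPM in jazD cdk8-1 (3.83 ± 0.64). *PDF1.2c* (3.45 ± 0.57) and *PDF1.2b* (2.60 ± 0.53) rose as well. The copies are alike in sequence, so how reads were split among them is uncertain. The Col-0 libraries themselves ranged from 1.65 to 5.66 CPM for *PDF1.2*. The DESeq2 Wald test gave no adjusted p for *PDF1.2*, *PDF1.3* and *PDF1.2c* and no call for *PDF1.2b* (adjusted p = 0.0986 in DESeq2). With that test 5 of the 11 list members with an adjusted p were called higher and none lower. Against jazD, 13 of 14 genes of the list were lower and none was higher.

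**Figure D2:**
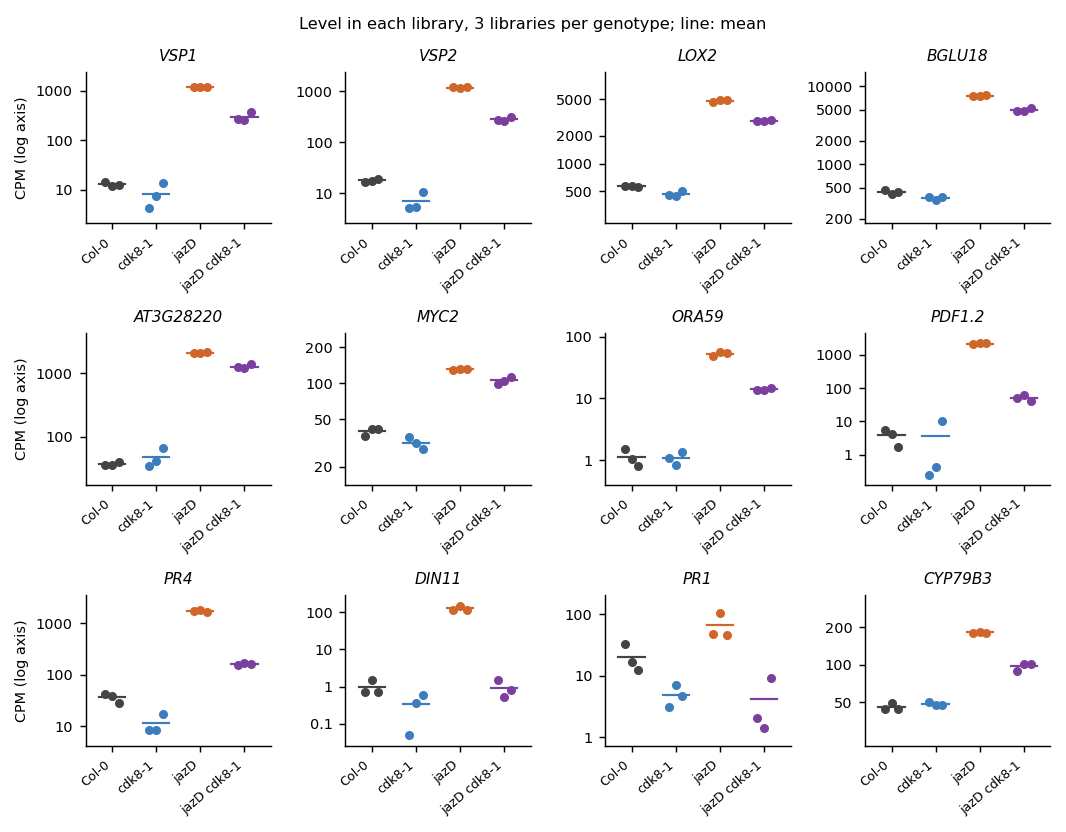
Level of 12 defence genes in each of the 12 libraries, in CPM on a log axis, 3 points per genotype, with a line at the mean. In jazD cdk8-1, *VSP1*, *LOX2*, *BGLU18* and *ORA59* lie between Col-0 and jazD, *DIN11* lies at the level of Col-0, and *PR1* lies below Col-0.

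ER bodies are compartments that store beta-glucosidases, and myrosinases are the enzymes that split glucosinolates when tissue is damaged. This group was nearly all higher: of 14 genes, all tested, 13 rose and 1 fell (*ESM1*, a nitrile-limiting protein gene, −0.55), with a median of 1.86. *BGLU18*, a beta-glucosidase of wound-induced ER bodies, was at 467, 413 and 434 CPM in Col-0 and at 4855, 4789 and 5303 CPM in jazD cdk8-1, 11.4-fold higher (3.51 ± 0.06). *PYK10* (2.68 ± 0.08), the main beta-glucosidase of constitutive ER bodies, and *NAI2* (2.53 ± 0.07), needed to form those bodies, rose, the first named after its values were seen. *NSP1*, a specifier protein that turns glucosinolate breakdown towards nitriles, rose from 67.7, 71.4 and 68.6 CPM to 398, 388 and 403 CPM (2.52 ± 0.05). *PBP1*, a lectin that binds PYK10, rose by 2.38 ± 0.06. The list took up a mean of 1.01% of counts in Col-0, 2.50% in jazD cdk8-1 and 2.26% in jazD. Its share was thus larger in jazD cdk8-1 than in jazD although 11 of the 14 genes were lower in jazD cdk8-1 than in jazD and 2 were higher.

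Indole glucosinolates are defence compounds made from tryptophan. Of 18 genes tested out of 19, 11 rose and 4 fell (median 0.36); in jazD 15 rose and 3 fell (median 1.04). *CYP79B3*, which commits tryptophan to the pathway, was at 44.2, 49.4 and 44.3 CPM in Col-0 and at 88.8, 101 and 101 CPM in jazD cdk8-1 (1.08 ± 0.06). Its partner *CYP79B2* rose by 0.89 ± 0.07 and was not called different from jazD (−0.12 ± 0.06). *IGMT5*, a methyltransferase of the indole ring, rose by 1.75 ± 0.13, and *GSTF9*, a glutathione S-transferase, by 0.68 ± 0.04. Among the 9 tryptophan synthesis genes, 5 rose and 1 fell (median 0.49). *PAI2* (1.73 ± 0.08), *PAT1* (0.79 ± 0.05), *TSA1* (0.58 ± 0.06) and *TSB1* (0.49 ± 0.05), enzymes of the route from anthranilate to tryptophan, were called higher. Against jazD, 7 of these 9 genes were lower and none was higher.

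Aliphatic glucosinolates, which are made from methionine, moved in both directions. Of 22 genes, all tested, 7 rose and 9 fell, with a median of −0.07 beside 0.01 for all genes. On log2(TPM + 0.5) these medians were 0.00 and 0.08. *MAM3*, which lengthens the methionine chain, was at 22.7, 25.3 and 19.3 CPM in Col-0 and at 33.7, 43.3 and 42.0 CPM in jazD cdk8-1 (0.83 ± 0.09). *IPMI2* (0.57 ± 0.05), of the same chain elongation, and *SOT18* (0.42 ± 0.05), a late sulfotransferase, rose too. *CYP83A1*, a core enzyme between elongation and sulfation, went the other way, from 362, 343 and 355 CPM to 215, 224 and 219 CPM (−0.69 ± 0.05). In jazD none of the 22 rose and 19 fell (median −0.42), and in cdk8-1 7 rose and 12 fell (median −0.21). The direct test against jazD found 13 genes higher and 2 lower in jazD cdk8-1. The interaction is the departure of the combined mutant from the sum of the 2 single-mutant changes on the log2 scale. In it 17 of the 22 were called higher and none lower. Over all genes 1555 (8.16%) were called higher and 1599 (8.39%) lower.

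Genes of sulfate assimilation, which feeds glucosinolate synthesis, divided evenly: 5 of 14 tested out of 15 rose and 5 fell (median −0.21). The adenosine phosphosulfate reductase genes differed among themselves. *APR1* fell from 56.7, 61.5 and 56.2 CPM to 30.0, 33.2 and 30.1 CPM (−0.90 ± 0.06) and *APR2* by −0.44 ± 0.05, whereas *APR3* rose from 22.4, 25.6 and 22.6 CPM to 35.3, 32.4 and 37.3 CPM (0.57 ± 0.07). *APR3* was higher in each single mutant, by 1.56 in jazD and 0.98 in cdk8-1, and its interaction was −1.97 ± 0.10. *APS1*, an ATP sulfurylase gene, fell by −0.29 ± 0.04.

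Flavonoid and anthocyanin genes rose in the combined mutant. Of 18 genes tested out of 20, 15 rose and none fell (median 1.04). *DFR*, the first enzyme committed to anthocyanins, was at 9.50, 8.03 and 10.2 CPM in Col-0 and at 40.8, 43.5 and 39.9 CPM in jazD cdk8-1, 4.48-fold higher (2.16 ± 0.10). *LDOX* (1.95 ± 0.09), which acts after it, and *TT19* (1.85 ± 0.10), a glutathione S-transferase that carries anthocyanins, rose with it. *FLS1*, the flavonol synthase on a competing branch, was at 18.1, 19.1 and 18.5 CPM in Col-0, at 20.0, 17.8 and 17.2 CPM in jazD and at 37.9, 36.1 and 36.1 CPM in jazD cdk8-1 (0.98 ± 0.06 against Col-0). It was higher still in cdk8-1 (1.52 against Col-0). Among the 3 mutants the counts of members that rose were 13 in jazD, 12 in cdk8-1 and 15 in jazD cdk8-1, and the direct test against jazD found 3 higher and 9 lower. In the wider phenylpropanoid and lignin pathway, 6 of 15 genes rose and 5 fell, with a median of −0.02 beside 0.01 for all genes. On log2(TPM + 0.5) these medians were 0.04 and 0.08. *HCT* (−0.65 ± 0.04), *CAD4* (−0.55 ± 0.05) and *4CL1* (−0.46 ± 0.04), enzymes of monolignol synthesis, fell, and *CCOAOMT1*, a methyltransferase of the pathway, rose by 0.33 ± 0.04.

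Salicylate and systemic resistance genes, which serve defence against biotrophic pathogens, fell in 8 of 18 cases, rose in 1 and were not called in the others (median −0.50). *ALD1*, which makes the resistance signal pipecolate, was at 1.61, 2.21 and 2.95 CPM in Col-0 and at 0.111, 0.191 and 0.371 CPM in jazD cdk8-1 (−3.26 ± 0.43). *PR1*, the standard marker of salicylate response, spread widely, from 12.4 to 32.5 CPM in Col-0 and from 1.44 to 9.17 CPM in jazD cdk8-1 (−2.23 ± 0.48), and was −3.56 without jazD cdk8-1 replicate 3. *WRKY54* (−0.76 ± 0.16), a transcription factor of the pathway, and *PAD4* (−0.39 ± 0.08), a lipase-like immune regulator, fell. In jazD 6 of the 18 rose and 2 fell, in cdk8-1 none rose and 10 fell, and against jazD 12 were lower and none was higher in jazD cdk8-1. Camalexin is an indole phytoalexin. Of its 6 genes 2 rose and 3 fell (median −0.57), or 1 fell without Col-0 replicate 2. In jazD all 6 rose, and in cdk8-1 none rose and 4 fell (median −1.45). Against cdk8-1, 2 were higher and none was lower in jazD cdk8-1. *CYP71A13* fell by −1.82 ± 0.46 and *PAD3*, the last enzyme, by −1.29 ± 0.44 (adjusted p = 0.0278 in edgeR), a call lost without Col-0 replicate 2 (−1.23, adjusted p = 0.0754 in edgeR) and in 3 other fits that left out 1 library; without jazD cdk8-1 replicate 3 the change was −2.02. *WRKY33*, an activator of these genes, fell by −0.46 ± 0.12, which was not called without Col-0 replicate 2 (−0.36, adjusted p = 0.0512 in edgeR), and *CYP71B6* rose by 0.35 ± 0.08. Of 12 touch, cold and early stress genes 2 rose and 5 fell (median −0.28); *TCH3*, a calmodulin-like gene, fell by −0.96 ± 0.12, *WRKY40* by −1.55 ± 0.33 and *RD29A* by −0.50 ± 0.10, and *COR15A*, a cold-regulated gene, rose by 0.55 ± 0.09.

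**Figure D3:**
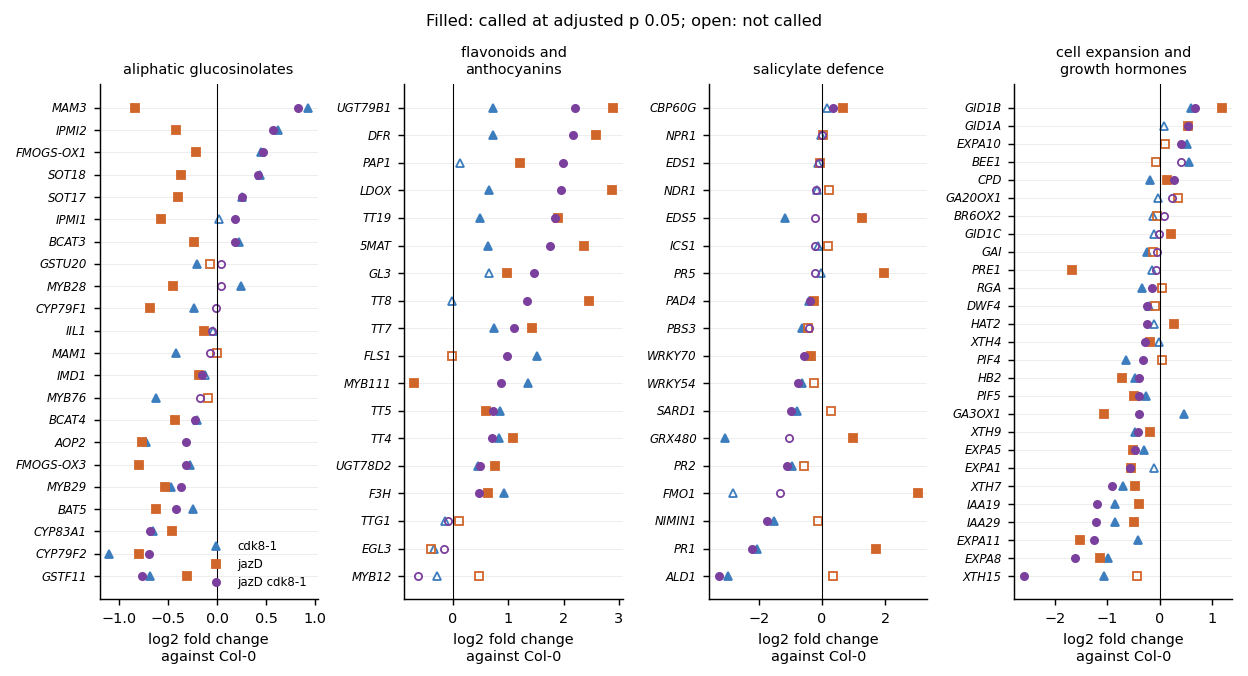
Log2 fold change against Col-0 of every tested member of 4 gene lists in cdk8-1 (triangles), jazD (squares) and jazD cdk8-1 (circles); filled symbols were called at an adjusted p of 0.05. The circles of the aliphatic glucosinolate genes lie on both sides of 0, from −0.76 to 0.83, those of the flavonoid genes lie mostly to the right of 0, and those of the salicylate and growth genes mostly to the left.

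Photosynthesis genes were slightly but widely lower. Of 32, all tested, none rose and 24 fell (median −0.24, and −0.16 on log2(TPM + 0.5) with 23 lower). *RBCS2B*, a Rubisco small subunit gene whose reads can be shared with near-identical copies, was at 5089, 4900.0 and 5105 CPM in Col-0 and at 3286, 3134 and 2823 CPM in jazD cdk8-1 (−0.71 ± 0.07). *RCA*, Rubisco activase, was at 8782, 8796 and 8461 CPM and at 6982, 6808 and 6496 CPM (−0.36 ± 0.05), above its level in jazD (0.35 ± 0.05 in the direct test). *FBA2* (−0.39 ± 0.05), a plastid aldolase, and *PSBO2* (−0.38 ± 0.05), a subunit of the oxygen-evolving complex, fell by similar sizes. Together the 32 genes made up a mean of 18.0% of counts in Col-0, 15.9% in jazD cdk8-1, 15.5% in jazD and 17.2% in cdk8-1. Against Col-0, none rose and 22 fell in jazD (median −0.19), and 5 rose and 18 fell in cdk8-1 (median −0.21). In whole rosettes, fewer cells of a type and less RNA per cell cannot be told apart.

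Genes of growth were lower in part. Of 27 cell expansion and growth hormone genes tested out of 28, 17 fell and 4 rose (median −0.28); on log2(TPM + 0.5) 13 fell and 5 rose. *EXPA8*, an expansin that loosens the cell wall, was at 192, 183 and 193 CPM in Col-0 and at 63.2, 64.4 and 57.0 CPM in jazD cdk8-1 (−1.62 ± 0.06). It was lower in each single mutant, at 76.6 to 92.8 CPM in jazD and 89.6 to 99.8 CPM in cdk8-1, and lowest in the combined mutant (−0.48 ± 0.06 against jazD). *EXPA11* (−1.25 ± 0.07), *XTH7* (−0.92 ± 0.06), a xyloglucan endotransglucosylase, and *PIF5* (−0.40 ± 0.05), a growth-promoting bHLH factor, fell too. Over all 38 tested expansin and xyloglucan enzyme genes, 17 fell and 7 rose (median −0.39). By at least 2-fold, 7 of them fell and 2 rose. The 2 rises were *SEN4* (1.63), which is also in the senescence list below, and *XTH25* (1.48). Among 20 cell cycle and replication genes, 8 fell and 2 rose (median −0.13); *MCM7* (−0.37 ± 0.06), *MCM4* (−0.42 ± 0.07) and *MCM5* (−0.41 ± 0.09), of the replicative helicase, fell, while *TSO2*, a ribonucleotide reductase subunit, rose by 0.28 ± 0.05.

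Markers of cell types moved in part with the genotypes. All 4 phloem markers fell (median −0.69), namely *SEOR1* (−0.74 ± 0.06), a sieve element protein, *SUC2* (−0.65 ± 0.05), the sucrose loader of companion cells, *CALS7* (−1.02 ± 0.12) and *APL* (−0.60 ± 0.08). Their summed level was 329.6 to 348.9 CPM in Col-0, 281.6 to 315 CPM in jazD, 225.9 to 230.2 CPM in cdk8-1 and 209.8 to 217.1 CPM in jazD cdk8-1. Of 6 guard cell markers, *FAMA* (0.74 ± 0.07), which completes the guard cell fate, and *MYB60* (0.26 ± 0.09) rose and *MUTE* (−1.86 ± 0.34), which acts before *FAMA*, fell; *MYB60* was not called without Col-0 replicate 1 (0.24, adjusted p = 0.102 in edgeR) or by DESeq2. The guard cell sum was 80.2 to 81.7 CPM in Col-0 and 96.7 to 101.8 CPM in jazD cdk8-1. Of 11 root markers 3 were tested, 4 had no counts in Col-0 and 4 had none in jazD cdk8-1, and the sum was 41.7 to 43.9 CPM in Col-0 and 40.1 to 42.1 CPM in jazD cdk8-1; *NRT2.1*, a nitrate transporter, was called higher at 1.00 ± 0.36, a call lost without Col-0 replicate 1 (0.62, adjusted p = 0.189 in edgeR). The 9 floral organ markers summed to 2.00 to 2.61 CPM in Col-0 and 1.25 to 1.84 CPM in jazD cdk8-1, with 3 at 0 in the latter, and 1 was tested and not called. The 4 trichome markers and the 2 shoot meristem markers tested were not called. The part of these marker differences in the other results was not tested.

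Clock genes split, with 5 of 12 higher and 5 lower, at a median of 0.03 (3 higher without Col-0 replicate 1). *CCA1*, a morning-expressed repressor, was at 47.9, 45.3 and 40.2 CPM in Col-0 and at 18.4, 18.0 and 17.0 CPM in jazD cdk8-1 (−1.32 ± 0.07). *LHY* (−0.90 ± 0.12), its close relative, and *PRR9* (−1.28 ± 0.07), a morning pseudo-response regulator, fell, whereas *ELF3* (0.60 ± 0.06), of the evening complex, rose. For clock genes the time of day matters, and the sources used here do not state when rosettes were harvested. In jazD *CCA1* changed by −1.58 and *PRR9* by −1.77, and in cdk8-1 by −0.12 and −0.57.

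Among flowering genes, 4 of 10 tested out of 13 rose and 1 fell (median 0.19). *FLC*, the main repressor of flowering, was at 1.5, 1.25 and 1.65 CPM in Col-0, at 1.58, 2.75 and 1.95 CPM in jazD, at 1.75, 2.58 and 2.55 CPM in cdk8-1 and at 3.34, 5.02 and 4.68 CPM in jazD cdk8-1. It was called against Col-0 (1.57 ± 0.22) and against jazD (1.05 ± 0.21), and each combined-mutant library lay above all 9 others. *MAF5* (2.59 ± 0.19) and *MAF4* (1.24 ± 0.31), relatives of *FLC*, rose, and *SOC1*, a promoter of flowering, fell by −0.29 ± 0.06. In wax synthesis, 3 of 12 tested genes rose and 7 fell (median −0.16). *CER4*, the reductase that makes primary alcohols, dropped from 3.68, 3.61 and 1.65 CPM to 0.0556, 0.143 and 0.232 CPM (−4.27 ± 0.42). *CER1* (−0.96 ± 0.08), of alkane synthesis, and *WSD1* (−1.98 ± 0.23), a wax ester synthase, fell, but *CER3*, the partner of CER1, rose by 0.79 ± 0.05. Of 15 senescence and dark-inducible genes tested out of 17, 6 rose and 4 fell (median 0.25). *SEN4* was at 65.3, 69.5 and 59.5 CPM in Col-0, at 103 to 105 CPM in jazD, at 111 to 134 CPM in cdk8-1 and at 197, 196 and 207 CPM in jazD cdk8-1 (1.63 ± 0.06). *NYC1* (0.56 ± 0.05) and *PPH* (0.41 ± 0.05), of chlorophyll breakdown, rose and *SEN1* (−0.87 ± 0.13) fell. For *SEN4* the log2 change in the combined mutant was the sum of the single log2 changes within error (interaction 0.01 ± 0.08). For *FLC* the interaction of 0.41 ± 0.33 was not called.

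**Figure D4:**
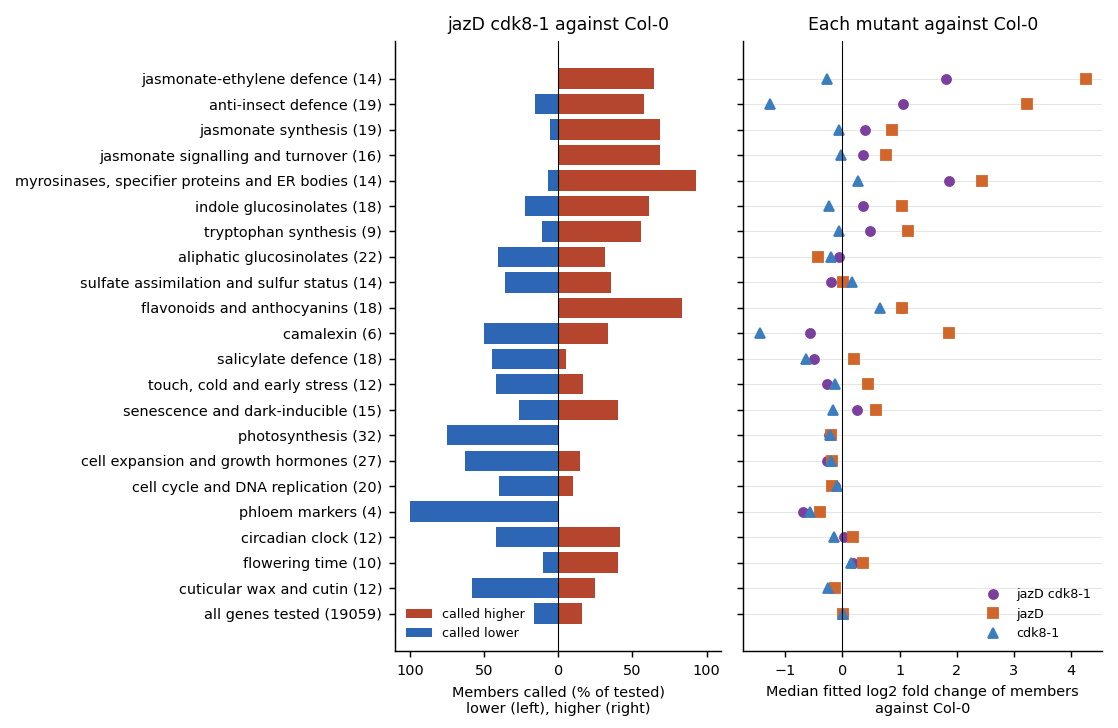
Left, share of the tested members of each list called higher (right of 0) or lower (left of 0) in jazD cdk8-1 against Col-0, in percent, with the number tested in brackets and all genes tested at the bottom. Right, median log2 fold change of the members against Col-0 in each mutant, which share the Col-0 libraries. In the jasmonate-ethylene list the median is 1.81 in jazD cdk8-1 and 4.26 in jazD; in the salicylate list it is −0.50 and 0.21.

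Gene families taken from the annotation gave further detail. The members named in this paragraph were chosen after their values were seen, as those changed at least 2-fold. Of all genes tested, 16.3% were called higher and 16.1% lower, and family counts near these shares are not particular to the family. Of 37 tested MATE efflux transporter genes 15 rose and none fell (median 0.21), among them AT4G21910 (1.86) and AT1G61890 (1.68). Of 34 tested glutathione S-transferase genes 15 rose and 3 fell (median 0.10); *GSTF6* (1.33) and *GSTF7* (1.4) rose. Jacalin lectins rose in 8 of 17 tested and fell in 5 (3 without Col-0 replicate 1), at a median of 0.69, and all 8 rises were at least 2-fold, such as *JAL22* (3.56) and *JAL34* (2.67). In the MYB family 16 of 58 tested rose and 8 fell (median 0.06), among them *MYB47* (4.24), *MYB113* (3.07) and *PAP1* (2.00); *MYB113* and *PAP1* are activators of anthocyanin genes. The WRKY family had 11 of 50 tested higher and 14 lower (median 0.00), with the 2 largest falls in *WRKY62* (−5.30) and *WRKY51* (−2.80). Auxin-responsive SAUR, Aux/IAA and GH3 genes rose in 12 of 49 tested and fell in 19 (median −0.20), and each of the 7 changed at least 2-fold fell, including *IAA19* (−1.2) and *IAA29* (−1.22). TIR-NBS-LRR immune receptor genes fell in 12 of 69 tested and rose in 3 (median −0.06), and between 1 and 6 rose when single libraries were left out, with 1 without jazD cdk8-1 replicate 3. The 21.7% of this family that were called compare with 32.4% of all genes. Ribosomal protein genes shifted slightly but widely: of 268 tested, 100 fell and 9 rose (median −0.13). On log2(TPM + 0.5), 47 fell and 21 rose (median −0.04), and 63 fell in the main test without jazD cdk8-1 replicate 3. Their direction against jazD depended on the scaling, with 11 higher and 72 lower in the main test and 75 higher and 10 lower on log2(TPM + 0.5). On the latter scale 6498 of all 19059 genes were higher and 2076 lower, so the 75 rises are not particular to this family. None of the 7 Mediator subunit genes examined other than *CDK8* was called. Further Mediator genes, among them *MED13*, *MED15A*, *MED5A*, *MED5B* and the *CYCC1* genes, were left out of the list and not examined here. The 7 reference genes, commonly used as steady controls, included 2 small rises, *UBQ10* (0.18 ± 0.05) and *GAPC1* (0.13 ± 0.04). Neither was called without Col-0 replicate 3 (adjusted p = 0.105 and 0.0603 in edgeR).

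Taken by size alone, the 12 largest rises (average log2 CPM of 1 or more, no overlap) included *VSP1*, *VSP2*, *MBP1* and genes that were silent or nearly so in wild type. The average is over all 12 libraries, so genes with few counts here, such as AT4G11310, can pass through their level in jazD or cdk8-1. AT5G28810, annotated as a Ulp1 protease family gene, had no counts in Col-0 and 222, 227 and 278 in jazD cdk8-1, at least 237-fold higher with 3 counts as the floor over the group. *CSLA01*, a cellulose synthase-like mannan synthase gene, had 3, 3 and 0 counts in Col-0 and 272, 254 and 336 in jazD cdk8-1 (7.05 ± 0.32). AT4G11310, a papain family cysteine protease gene, had 1 count in Col-0 in all against 25, 20 and 35, a ratio of 78.3 with a 95% interval from 13.7 to 3132 for counting error alone. AT3G28220, a TRAF-like family gene, was at 35.5, 35.3 and 39.7 CPM in Col-0 and at 1243, 1226 and 1384 CPM in jazD cdk8-1 (5.12 ± 0.14), and AT3G20370 of the same family rose by 4.12 ± 0.16. AT1G14120, a 2-oxoglutarate-dependent oxygenase gene (4.68 ± 0.27), *MYB47*, a MYB transcription factor (4.24 ± 0.11), and AT1G52000, a jacalin-type lectin (4.08 ± 0.10), also belonged to the set, as did *PAO2*. *MYB47* was at 34.2, 34.3 and 35.2 CPM in jazD and 32.8, 30.5 and 30.8 CPM in jazD cdk8-1, a difference that was not called (−0.14 ± 0.07). AT1G52000 was higher in jazD cdk8-1 than in jazD (0.40 ± 0.08).

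*PAO2*, a polyamine oxidase gene, was split within the genotype. It had 2, 2 and 2 counts in Col-0 and 2, 632 and 683 in jazD cdk8-1, so the first combined-mutant library had the same count as every Col-0 library. The fitted change of 7.61 ± 1.75 averages over both states and describes neither. The gene met the rule on overlap only because equal counts were divided by different library sizes, at 0.111 CPM in that library against at most 0.104 CPM in Col-0. In cdk8-1 it had 485, 2 and 2 counts and in jazD 2, 2 and 2.

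The 12 largest falls by the same rule included *CDK8*, *JAZ6*, *JAZ2*, *JAZ5* and *TAT3*. AT4G12917, annotated as a non-coding RNA, had 94, 78 and 114 counts in Col-0 and none in the 3 libraries of jazD cdk8-1 or the 3 of jazD, at least 97.4-fold lower in the combined mutant. *TRM24*, a gene named for a TON1 recruiting motif, was at 5.76, 5.72 and 5.75 CPM in Col-0 and at 0.667, 0.526 and 0.232 CPM in jazD cdk8-1 (−3.61 ± 0.25), and it changed by −4.20 in jazD. AT4G03450, an ankyrin repeat family gene, fell by −3.75 ± 0.36 and was −4.67 without jazD cdk8-1 replicate 3. AT4G01390, another TRAF-like gene, was at 7.47, 7.48 and 6.90 CPM in Col-0 and at 0.834, 1.00 and 0.602 CPM in jazD cdk8-1 (−3.16 ± 0.18). In cdk8-1 AT4G03450 changed by −3.82 and AT4G01390 by −5.71, and in jazD by −0.16 and 0.33. *GolS3*, a galactinol synthase of the cold response, was at 18.1, 15.4 and 20.5 CPM in Col-0, at 7.95, 5.11 and 7.94 CPM in jazD, at 9.78, 10.6 and 10.4 CPM in cdk8-1 and at 2.45, 2.01 and 2.36 CPM in jazD cdk8-1. On the log2 scale, its fall of −2.98 ± 0.16 exceeded the sum of the single changes (interaction −0.80 ± 0.22, adjusted p = 0.0152 in edgeR). This need not hold for differences in CPM. *MRU1* (−2.96 ± 0.14) and its neighbour in the annotation AT5G35480 (−2.54 ± 0.17) fell together and were lower in each single mutant as well.

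Some genes that were far from wild type in jazD lay much nearer to it in the combined mutant. *DIN11*, an oxygenase gene induced by darkness, was at 115, 151 and 117 CPM in jazD but at 1.5, 0.526 and 0.787 CPM in jazD cdk8-1, overlapping the Col-0 values of 0.726, 1.46 and 0.70 CPM (−0.08 ± 0.45 against Col-0, not called). AT4G16260, a glycosyl hydrolase gene, was at 560.4 to 633 CPM in jazD and at 6.46 to 11.0 CPM in jazD cdk8-1, and stayed above Col-0 (1.55 ± 0.27). *AACT1*, an acyltransferase of hydroxycinnamate amides, was at 406 to 451 CPM in jazD and at 4.64 to 8.73 CPM in jazD cdk8-1 (3.50 ± 0.52 against Col-0, and 4.20 without Col-0 replicate 2). In the other direction, 6 chromosome 5 genes with at most 6 counts in any jazD library were expressed in the combined mutant. AT5G49440 was at 80.2, 83.2 and 82.7 CPM in Col-0, at 0, 0 and 0.355 CPM in jazD and at 106, 92.4 and 92.3 CPM in jazD cdk8-1. AT5G45490 was near wild type in the same way (−0.23 ± 0.07 against Col-0), and AT5G50565, AT5G49640, AT5G50665 and AT5G51630 lay between −0.10 and 0.22 against Col-0, none of them called. The locus numbers of these 6 genes run from AT5G45490 to AT5G51630. Counts do not show whether this stretch of DNA is the same in every line. A difference in DNA and one in expression cannot be told apart here.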

How the data were processed

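RNA was measured by RNA-seq of 12 pools of rosettes, 3 for each of 4 genotypes. Expected counts and TPM per gene were deposited by the authors, made with RSEM 1.2.25 on the TAIR10 build per the submitters' processing notes. The aligner, read length and strand setting were not given in the sources used here. Of the expected counts, 96.58% were whole (tolerance 1e-9); all were rounded. Gene names came from the RefSeq table, which held 32835 of the 33323 loci. Promoter and protein sequences were not analysed here.

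Counts were fitted with edgeR 4.0.16 (R 4.3.3) by its quasi-likelihood test, after filterByExpr by genotype (19059 genes kept) and TMM scaling (factors 0.9543 to 1.0557), with 1 mean per genotype over 12 libraries and 8 residual degrees of freedom. P-values were adjusted by Benjamini-Hochberg over all genes tested, with a call at 0.05. Standard errors are approximate, the log2 fold change divided by the root of F. The common biological coefficient of variation was 5.07%. The fit was tested on simulated data with 18878 genes for jazD cdk8-1 against Col-0: 47 of 67 genes changed 1.5-fold, 59 of 67 changed 2-fold and 64 of 64 changed 4-fold were called, and 13 unchanged genes were. In the simulation only these genes changed, in jazD cdk8-1 alone, and all others had the same mean in every genotype. It therefore does not cover data with 32.4% of genes called, or the dependence on scaling. Intervals and floors of 3 counts cover counting error only. Replicates are separate pools of plants.

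Named were *CDK8* and the *JAZ* genes, for jazD cdk8-1 against Col-0 the 12 called genes with the largest change in each direction (average log2 CPM of 1 or more, no overlap), up to 4 called members with the smallest adjusted p in each of 33 lists (433 loci, after 22 genes whose symbols the RefSeq table did not give were left out), and the 6 largest changes each way against jazD, by the same rule, and in the interaction, by that rule without the condition on overlap. *COI1*, *JAR1*, *FAD7*, *TPS04*, *CYP82G1*, *ESM1*, *PYK10* and the family members were named after their values were seen. The members and lists were chosen with earlier results of these data known, so they support nothing independently. Alternatives were DESeq2 1.42.0, limma 3.58.1 on log2(TPM + 0.1, 0.5 or 1), other scalings and filters, a 1.2-fold minimum (glmTreat), only the libraries compared, a replicate block and leaving out each library.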

Additional observations from a re-analysis of the deposited data

Results flagged for a closer look

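On the log2 scale, the change in the combined mutant departed from the sum of the jazD and cdk8-1 changes for many genes. This departure, the interaction, was called higher in 1555 and lower in 1599 (edgeR quasi-likelihood test, adjusted p of 0.05). Where the interaction was called and the average log2 CPM was 1 or more, the 6 largest departures upward were in chromosome 5 genes, each with at most 6 counts in any jazD library and near the wild-type level in jazD cdk8-1. The log2 interaction was 10.19 for AT5G50565, 9.16 for AT5G49440, 9.83 for AT5G45490, 8.34 for AT5G49640, 7.94 for AT5G50665 and 7.95 for AT5G51630. Whether the DNA at these loci, which run from AT5G45490 to AT5G51630, is the same in every line was not tested.

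Under the same limits, 4 of the 6 largest departures downward were in defensin genes of the jasmonate-ethylene branch. *DIN11* had an interaction of −5.60, *PDF1.3* of −8.34, *PDF1.2c* of −7.98, *PDF1.2b* of −7.14, *PDF1.2* of −5.37 and *AACT1* of −6.52. For the defensin genes and *AACT1* these values leaned on cdk8-1 replicate 3, in which *PDF1.3* stood at 10.7 CPM against 0.0499 and 0.155 CPM in the other cdk8-1 libraries. Without that library the interactions of *PDF1.3* (−3.22), *PDF1.2c* (−4.72), *PDF1.2b* (−3.16) and *PDF1.2* (−1.90) were not called, and that of *AACT1* was 0.32 and not called. The comparisons of jazD cdk8-1 with Col-0 and with jazD do not use the cdk8-1 means. Their standard errors and p-values do use a spread estimated over all 12 libraries, cdk8-1 replicate 3 included.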

How the results depend on the processing

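Over single-library omissions, jazD cdk8-1 against Col-0 gave 2573 to 3198 genes higher and 2545 to 3252 lower, with 357 to 387 and 495 to 558 of at least 2-fold. Replicate numbers did not pair the samples (correlations of same-numbered deviations −0.0583 to 0.0508 over all pairs of genotypes); the replicate block gave 5983 called genes, and DESeq2 gave 5160, against 6173. Requiring a fold above 1.2 (glmTreat) left 1005 higher and 1229 lower against Col-0, 1020 and 1723 against jazD, 783 and 433 against cdk8-1, 1978 and 1488 for jazD, 591 and 1076 for cdk8-1 against Col-0, and 437 and 547 in the interaction, by construction. With log2(TPM + 0.1), calls were 6499 higher and 2048 lower against jazD, 3913 higher for cdk8-1 and 1056 lower in the interaction. With log2(TPM + 0.5), they were 6498 and 2076 against jazD and 3935 higher for cdk8-1, and those of at least 2-fold were 264 lower against Col-0, 490 lower against jazD, 248 higher and 85 lower against cdk8-1, 288 lower for jazD and 210 lower for cdk8-1. With log2(TPM + 1), they were 6475 and 2075 against jazD and 3947 and 1739 for cdk8-1, and those of at least 2-fold were 212 and 169 against Col-0, 158 and 393 against jazD, 195 and 51 against cdk8-1, 502 and 206 for jazD, 84 and 137 for cdk8-1 and 95 higher in the interaction. The TPM fits apply no TMM scaling, and larger pseudocounts shrink low genes. Against Col-0, directions turned for 3 named genes, none of them called: AT5G50565 (0.0078 in the 3 TPM fits, −0.1812 to 0.0091 over omissions of 1 library), AT5G49640 (−0.0117 with upper-quartile factors, −0.0371 to 0.0441 over omissions), *DIN11* (0.0038 and 0.0055 with TPM + 0.5 and + 1, −0.5487 to 0.3496 over omissions). The called interaction of *AACT1* ranged from −7.2201 to 0.3222, the latter without cdk8-1 replicate 3. Of 138 named genes, 24 had an alternative that ended the call or turned the direction against Col-0, the cause of which was not tested. *JAZ8* and *CYP82G1* had few counts and wide standard errors, and the part of depth in this was not tested.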
